A study of Mus musculus with 5 samples.

Results

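The 9 hypoxia-responsive genes, Vegfa, Adm, Egln1, Egln3, Bnip3, Ddit4, Ankrd37, Ndrg1 and P4ha1, were followed through the adipogenic differentiation of mouse 3T3-L1 cells with and without the polymer P-G3, a polycation by the series title. The genes were taken by name, and all 9 were present among the 32285 genes of the deposited tables. 3T3-L1 is an established line of mouse embryonic fibroblasts that can be turned into fat cells by a hormone cocktail. Single-cell 3' RNA libraries were made from 5 cultures, 1 per group. The day 3 and day 6 P-G3 cultures had received P-G3 at 10 µg/mL from day 0 onwards together with the differentiation cocktail. The day 3 and day 6 untreated cultures had received the cocktail alone. The day 0 culture had received neither the cocktail nor P-G3 and is labelled as fibroblasts. The cocktail, given to cells that had been confluent for 2 days, combined 0.5 mM of the phosphodiesterase inhibitor IBMX with 1 µM dexamethasone, a glucocorticoid, and insulin at 10 µg/mL. It was given for 2 days and was followed by medium with 2.5 µg/mL insulin. All groups are 1 cell line grown in a dish, and the labels name no culture under low oxygen.

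Cells measure oxygen through prolyl hydroxylases that mark the α subunits of hypoxia-inducible factor (HIF) for destruction by the von Hippel-Lindau ubiquitin ligase. When oxygen is low the marks are not made, the α subunit enters the nucleus and pairs there with ARNT, and the pair switches on genes by binding the core sequence ACGTG or GCGTG. Its targets supply blood vessels, glycolysis and the removal of mitochondria, and they include hydroxylases that shut the response down again. Several of these genes also answer to signals other than oxygen, among them glucocorticoids, insulin and nutrient stress, and differentiating fat cells in culture are known to produce vascular endothelial growth factor.

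Among the 9, Vegfa encodes the main growth factor for blood vessels, and Adm encodes adrenomedullin, a peptide that widens vessels. Egln1 and Egln3 encode the oxygen-sensing prolyl hydroxylases PHD2 and PHD3. Bnip3 encodes a mitochondrial outer membrane receptor for mitophagy, and Ddit4 encodes REDD1, an inhibitor of the growth kinase complex mTORC1. Ankrd37 encodes an ankyrin-repeat protein, and Ndrg1 encodes a cytoplasmic protein linked to growth arrest and differentiation. P4ha1 encodes the catalytic subunit of the enzyme that hydroxylates proline in collagen.

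The promoters of 8 of the 9 genes were present in the RefSeq promoter table (GRCm38.p6), and the table gave 9 windows for them. The 250 bases before each start were searched on both strands for ACGTG and GCGTG. All 8 genes had at least 1 window with a match, which makes 8 of their 9 windows, against 38.6% of 32851 windows of all genes. For Vegfa the matches lay only in a second window, which falls inside the gene. The motif is 5 bases long, and these promoters are rich in G and C, so a match is a description of the letters and not a binding site. 4 windows are shown because they span the range of matches and belong to genes on which the results turn. Capitals mark the matches, with a match on the opposite strand appearing as CACGT or CACGC.

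Bnip3 promoter: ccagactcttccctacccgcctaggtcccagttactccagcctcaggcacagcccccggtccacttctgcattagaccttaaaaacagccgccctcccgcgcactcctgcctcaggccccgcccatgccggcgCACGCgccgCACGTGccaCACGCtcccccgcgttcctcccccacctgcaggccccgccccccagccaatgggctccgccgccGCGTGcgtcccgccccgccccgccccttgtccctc
Ankrd37 promoter: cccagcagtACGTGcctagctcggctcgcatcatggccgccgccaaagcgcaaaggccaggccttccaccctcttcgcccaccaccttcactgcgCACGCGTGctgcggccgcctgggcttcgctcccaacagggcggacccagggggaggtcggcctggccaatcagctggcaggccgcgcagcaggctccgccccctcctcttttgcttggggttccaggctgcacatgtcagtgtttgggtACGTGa
P4ha1 promoter: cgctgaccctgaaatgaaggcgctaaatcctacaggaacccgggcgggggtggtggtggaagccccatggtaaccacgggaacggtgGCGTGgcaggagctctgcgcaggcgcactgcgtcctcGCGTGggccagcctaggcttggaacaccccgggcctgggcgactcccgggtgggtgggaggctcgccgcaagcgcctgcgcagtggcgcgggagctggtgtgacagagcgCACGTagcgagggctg
Vegfa promoter, upstream window: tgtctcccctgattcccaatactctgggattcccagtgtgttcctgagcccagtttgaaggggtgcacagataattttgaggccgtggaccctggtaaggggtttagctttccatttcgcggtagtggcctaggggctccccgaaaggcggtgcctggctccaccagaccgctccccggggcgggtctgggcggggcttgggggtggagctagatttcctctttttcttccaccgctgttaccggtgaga

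The Bnip3 window (chr7:138909507-138909756, minus strand) held 5 matches, of which 2 overlap in a CACGTG read from both strands. The Ankrd37 window (chr8:45999851-46000100, minus strand) also had 2 overlapping matches in its middle, 4 in all, the nearest ending 2 bases before the start. In the annotation used for gene positions Ankrd37 spans chr8:45996902-46005707, so this window falls inside the annotated gene. The P4ha1 window (chr10:59323046-59323295, plus strand) held 3 matches. The upstream Vegfa window (chr17:46032378-46032627, minus strand) held none. The second Vegfa window (chr17:46025164-46025413, minus strand), which lies inside the gene, held 2. The G and C content of these windows was 72.4% for Bnip3, 67.6% for Ankrd37, 69.6% for P4ha1 and 59.2% for the upstream Vegfa window. ACGTG alone was found in 16.6% of all windows and CACGTG in 6.02%.

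Levels were taken as counts of unique molecular identifiers (UMIs), summed over the kept cells of a library and scaled to the usual CPM of that library's UMIs. Kept cells had at least 500 genes and at most 20% mitochondrial UMIs, and they numbered between 2468 and 3893 per library with 88432894 to 179221992 UMIs. The day 6 libraries stood apart, with 62.0% of barcodes kept in P-G3 and 46.7% in untreated cells, against 97.4% to 98.9% in the other libraries. The median kept cell held 16658 UMIs in the day 6 P-G3 library, against 34215 UMIs in the day 6 untreated library. Fewer than 10 kept barcodes were shared by any pair of libraries. Summed adipocyte markers were 2.01 CPM on day 0, 881 CPM on day 3 and 6495 CPM on day 6 in untreated cells, and 1623 CPM on day 3 and 8538 CPM on day 6 in P-G3 cells. Summed over all genes of each marker list and in every library, macrophage markers gave at most 3.99 CPM, lymphocyte markers at most 0.195 CPM and endothelial markers at most 11.0 CPM. With 1 library per group there is no replicate check and no test, and every interval below is a 95% interval for counting error alone.

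**Figure D1:**
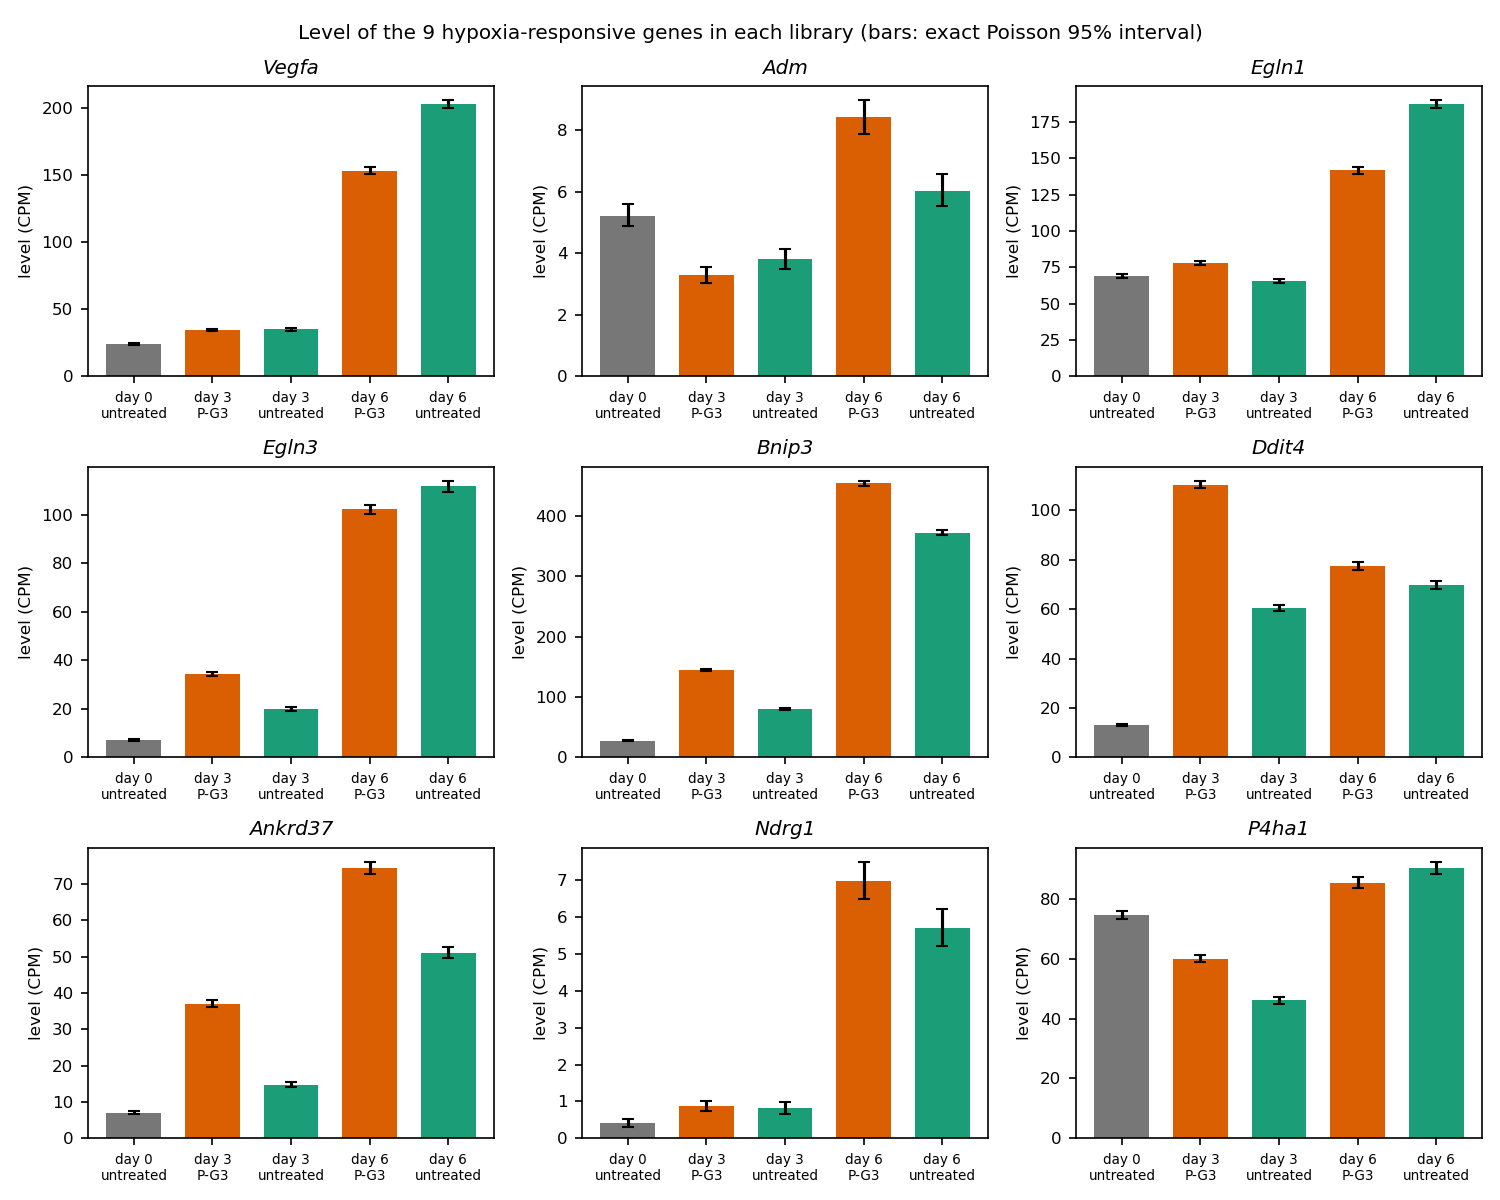
Levels of the 9 genes in CPM in the 5 libraries, 1 panel per gene with its own axis from 0; grey bars are day 0, orange bars P-G3 and green bars untreated, and error bars are exact Poisson 95% intervals. Bnip3 reached 454 CPM in day 6 P-G3 cells and Egln3 reached 112 CPM in day 6 untreated cells, while Ddit4 peaked at 110 CPM in day 3 P-G3 cells.

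Differentiation without the polymer was described first. Vegfa, Egln1, Egln3, Bnip3, Ddit4, Ankrd37 and Ndrg1 were at least 2-fold higher on day 6 than on day 0, which is 7 of the 9 genes, and none was 2-fold lower. Among all 9693 genes that passed a minimum of 5 CPM in one library or the other, 16.2% were higher by 2-fold or more and 10.7% were lower by as much. The median log2 ratio was 2.33 over the 9 genes and 0.13 over all genes, on the scale of log2(CPM + 1). The genes did not move in step, however, and 3 time courses could be told apart.

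The prolyl hydroxylase genes differed in when and how far they were higher. Egln3 had 6.97 CPM on day 0 (interval 6.56 to 7.39), 19.9 CPM on day 3 (19.1 to 20.6) and 112 CPM on day 6 (110 to 114) in untreated cells. Its day 6 level was 16.0-fold that of day 0 (15.1 to 17.1), and the intervals of the 3 days did not overlap. Egln1 had 69.1 CPM on day 0, 65.5 CPM on day 3 and 187 CPM on day 6, so that its whole difference lay between day 3 and day 6, at 2.86-fold (2.79 to 2.94). The third family member, Egln2, which encodes PHD1, ran the other way, with 52.2 CPM on day 0, 54.4 CPM on day 3 and 37.9 CPM on day 6.

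Blood vessel factors also parted. Vegfa had 24.2 CPM on day 0 (23.5 to 25.0), 35.1 CPM on day 3 (34.1 to 36.1) and 203 CPM on day 6 (200 to 206), and day 6 stood 5.79-fold above day 3 (5.60 to 5.97). Adm had 5.22 CPM on day 0, 3.81 CPM on day 3 and 6.03 CPM on day 6. Adm intervals for day 0 (4.87 to 5.59) and day 6 (5.53 to 6.56) overlapped at their ends. The ratio of day 6 over day 0 for Adm was 1.15 (1.03 to 1.29), an interval that lies above equal levels. Of 16 other angiogenic ligands and matrix factors, 11 reached 5 CPM, and between day 0 and day 6 the counts at least 2-fold higher and lower were 3 and 6. Apln, which encodes the vessel peptide apelin, was among the higher, with 66.7 CPM on day 6 and 4.66 CPM on day 0. Thbs1, an inhibitor of vessel growth, had 5.93 CPM on day 6 and 59.6 CPM on day 0, and the lymphatic factor Vegfc had 6.62 CPM on day 6 and 35.0 CPM on day 0. Of 10 receptor genes for these ligands, 4 reached 5 CPM. Nrp1 and Nrp2, which encode VEGF co-receptors, had 31.7 and 28.0 CPM on day 6, against 54.8 and 62.1 CPM on day 0. Kdr, the main signalling receptor for VEGF-A, had no UMI in 4 libraries and 0.0126 CPM on day 0, Flt1 had 1.23 to 6.17 CPM, and the adrenomedullin receptor genes Calcrl and Ramp2 had at most 8.56 and 3.66 CPM.

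The mitophagy receptor Bnip3 had 27.7 CPM on day 0 (26.9 to 28.6), 80.7 CPM on day 3 (79.2 to 82.2) and 372 CPM on day 6 (368 to 376). It therefore stood higher at each later day, 2.91-fold on day 3 over day 0 and 4.61-fold on day 6 over day 3. Its relative Bnip3l, which encodes the mitophagy receptor NIX, had 299 CPM on day 6 and 162 CPM on day 3. Of 17 measured genes of a mitophagy and autophagy list that does not hold Bnip3, 13 were higher on day 6 than on day 3, but none by 2-fold, and 54.1% of 9583 genes were higher between these days.

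Ddit4 followed the second time course, with its difference at the start. It had 13.0 CPM on day 0 (12.5 to 13.6), 60.5 CPM on day 3 (59.2 to 61.8) and 69.8 CPM on day 6 (68.0 to 71.5). Day 3 was 4.64-fold above day 0 (4.42 to 4.87), and day 6 was 1.15-fold above day 3 (1.12 to 1.19). Ddit4 is known as a target of the glucocorticoid receptor and of the stress factor ATF4 as well as of HIF, and both lists moved differently over the days. Over all 9454 genes, 57.0% were higher on day 3 than on day 0 and 6.4% at least 2-fold higher, with a median log2 ratio of 0.08. Of 17 measured glucocorticoid targets, 14 were at least 2-fold higher on day 3 than on day 0, with a median log2 ratio of 1.85. They included Lcn2, Zbtb16 and Glul, at 127, 38.8 and 157 CPM on day 3 against 0.825, 0.428 and 5.66 CPM on day 0. Of 26 measured ATF4 targets, 22 were lower on day 3 than on day 0, and 29 of 29 were higher on day 6 than on day 3, as in Trib3 (98.3 CPM on day 6, against 7.33 CPM on day 3). The part of either pathway in the Ddit4 level was not tested.

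The remaining genes were Ankrd37, Ndrg1 and P4ha1. Ankrd37 had 7.06 CPM on day 0 (6.66 to 7.49), 14.8 CPM on day 3 (14.1 to 15.4) and 51.1 CPM on day 6 (49.6 to 52.6). Ndrg1 had the fewest UMIs of the 9 genes, with 0.403 CPM on day 0 (64 UMIs), 0.816 CPM on day 3 (114 UMIs) and 5.70 CPM on day 6 (504 UMIs), a ratio of 14.1 between day 6 and day 0 (10.9 to 18.6). P4ha1 formed the third time course, a dip that Adm shared, with 74.6 CPM on day 0 (73.3 to 76.0), 46.0 CPM on day 3 (44.9 to 47.2) and 90.3 CPM on day 6 (88.3 to 92.3). Its partner P4hb, which encodes the other subunit of collagen prolyl hydroxylase, had 288 CPM on day 0, 265 CPM on day 3 and 276 CPM on day 6. Among collagen-modifying enzymes the lysyl oxidase Lox had 66.0 CPM on day 6 and 201 CPM on day 3, whereas the lysyl hydroxylase Plod1 had 110 CPM on day 6 and 50.1 CPM on day 3.

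Step by step, 3 of the 8 genes with at least 5 CPM were at least 2-fold higher on day 3 than on day 0 (Ddit4, Bnip3 and Egln3), against 6.4% of 9454 genes higher and 3.99% lower. None of the 8 was 2-fold lower. Calls were made on CPM + 1, where Ankrd37 fell just short at a log2 ratio of 0.97, although its plain CPM ratio was 2.09. With 0.1 CPM added in place of 1, 4 of the 8 were at least 2-fold higher, against 7.21% of all genes. Between day 3 and day 6, 6 of 9 were at least 2-fold higher (Vegfa, Egln3, Bnip3, Ndrg1, Ankrd37 and Egln1), against 6.97% of 9583 genes higher and 5.92% lower. The wider list of 40 HIF targets, which holds none of the 9, showed its difference in the second step. Of its 31 measured genes, 16 were higher and 15 lower on day 3 than on day 0, with a median log2 ratio of 0.03, against 0.08 over all genes. On day 6 over day 3, 28 of 32 were higher, 18 of them at least 2-fold, with a median of 1.10 against 0.05 over all genes, of which 54.1% were higher. Ero1l, the oxidase that helps proteins fold in the endoplasmic reticulum, had 930 CPM on day 6 and 44.5 CPM on day 3. Of 18 glycolysis genes, 17 were higher on day 6 than on day 3, with hexokinase Hk2 at 278 and 61.3 CPM and the insulin-responsive glucose transporter Slc2a4 at 44.7 and 2.73 CPM. Slc2a4 is also among the adipocyte markers used here.

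The other transcripts of the oxygen-sensing machinery, a list without Egln1 and Egln3, moved less as a set, though not gene by gene. Hif1a had 74.4 CPM on day 0, 76.8 CPM on day 3 and 56.3 CPM on day 6 in untreated cells. Epas1, which encodes HIF-2α, had 0.586, 4.98 and 15.7 CPM on the same days, and Vhl, the ligase's recognition subunit, had 14.2, 20.4 and 41.1 CPM. Arnt stayed between 13.0 and 18.4 CPM and the asparaginyl hydroxylase gene Hif1an between 15.3 and 17.4 CPM over these days. Of 15 machinery genes measured on day 6 over day 3, 7 were higher, 2 of them at least 2-fold, and 8 were lower. Their median log2 ratio was -0.02, against 0.05 over all genes. HIF is controlled largely at the protein level, which these libraries do not measure.

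P-G3 was then set against untreated cells on the same day. On day 3, Ankrd37 was the only one of the 9 genes at least 2-fold higher in P-G3 cells, and none was 2-fold lower. Only 7 of the 9 reached 5 CPM in either library, and over all 9215 genes at that level the shares past 2-fold were 0.109% higher and 2.38% lower. Ankrd37 had 37.1 CPM in P-G3 cells (36.2 to 38.0), against 14.8 CPM in untreated cells (14.1 to 15.4), a ratio of 2.51 (2.39 to 2.64). It ranked 3rd from the top among the 9215 genes. Ufsp2, a protein-coding gene that overlaps Ankrd37 on the opposite strand, had 60.9 CPM in P-G3 cells and 53.0 CPM in untreated cells, and whether reads were counted by strand is not given in the sources used here.

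Bnip3, Ddit4 and Egln3 followed Ankrd37 on day 3. Bnip3 had 144 CPM in P-G3 cells (143 to 146), against 80.7 CPM in untreated cells (79.2 to 82.2), and ranked 28th. Ddit4 had 110 CPM in P-G3 cells (109 to 112), against 60.5 CPM in untreated cells (59.2 to 61.8), and ranked 21st. Egln3 had 34.4 CPM in P-G3 cells (33.6 to 35.3), against 19.9 CPM in untreated cells (19.1 to 20.6), and ranked 36th. All 3 lay just under the 2-fold line, at ratios of 1.79 for Bnip3, 1.83 for Ddit4 and 1.73 for Egln3. Smaller differences were found for P4ha1, at 60.0 CPM in P-G3 cells and 46.0 CPM in untreated cells, and for Egln1, at 77.7 CPM in P-G3 cells and 65.5 CPM in untreated cells.

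Vegfa was not among them on day 3. It had 34.5 CPM in P-G3 cells (33.7 to 35.4), against 35.1 CPM in untreated cells (34.1 to 36.1), and these intervals overlapped. Adm had 3.29 CPM in P-G3 cells (3.03 to 3.56) and 3.81 CPM in untreated cells (3.50 to 4.15). This direction turned under TMM and median-of-ratios scaling. Ndrg1 had 0.876 CPM in P-G3 cells and 0.816 CPM in untreated cells. The intervals overlapped for both genes, for Adm only at their ends, and such overlap alone does not mean equal levels.

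All genes together had a median log2 ratio of -0.23 for P-G3 over untreated cells on day 3, against 0.76 for the 7 measured genes of the 9. The ratio of a gene fell with its transcript length (Spearman's rho -0.60 across 9215 genes, a description). With the trend by length removed, the log2 ratios were 1.15 for Ankrd37, 0.96 for Egln3, 0.89 for Ddit4, 0.86 for Bnip3, 0.73 for P4ha1, 0.56 for Egln1 and 0.29 for Vegfa. The sign for Vegfa thus turned from -0.02 to a positive value, as it also did under 2 other scalings. These scalings, TMM and median-of-ratios, bring the median of all genes to 0.00 and 0.03. Under them 3 and 4 of the 7 genes were at least 2-fold higher, in place of 1. The share of all genes at least 2-fold higher was 0.383% and 0.396%, in place of 0.109%.

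The rest of the pathway was set beside these genes, and beside the 27.5% of all 9215 genes that were higher in day 3 P-G3 cells. The values of these lists and their genes carry no correction for transcript length, and the part of length in them was not tested. Of 29 measured HIF targets outside the 9, 21 were higher and 8 lower in day 3 P-G3 cells, with a median of 0.17. Mif, which encodes a secreted cytokine, had 900 CPM in P-G3 cells and 416 CPM in untreated cells, and was the 1 target at least 2-fold higher. All 17 measured glycolysis genes were higher (median 0.47 on the log2 scale), but none by 2-fold. Enolase Eno1 had 448 CPM in P-G3 cells and 237 CPM in untreated cells, and lactate dehydrogenase Ldha had 1456 CPM in P-G3 cells and 805 CPM in untreated cells. Of 17 glucocorticoid targets, 12 were lower, close to the share of all genes, and of 26 ATF4 targets 13 were higher and 13 lower. Adipocyte markers were higher in the same P-G3 library (1623 CPM, against 881 CPM in untreated cells) and preadipocyte markers were lower (1475 CPM, against 2612 CPM), and their part in the differences above was not tested.

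**Figure D2:**
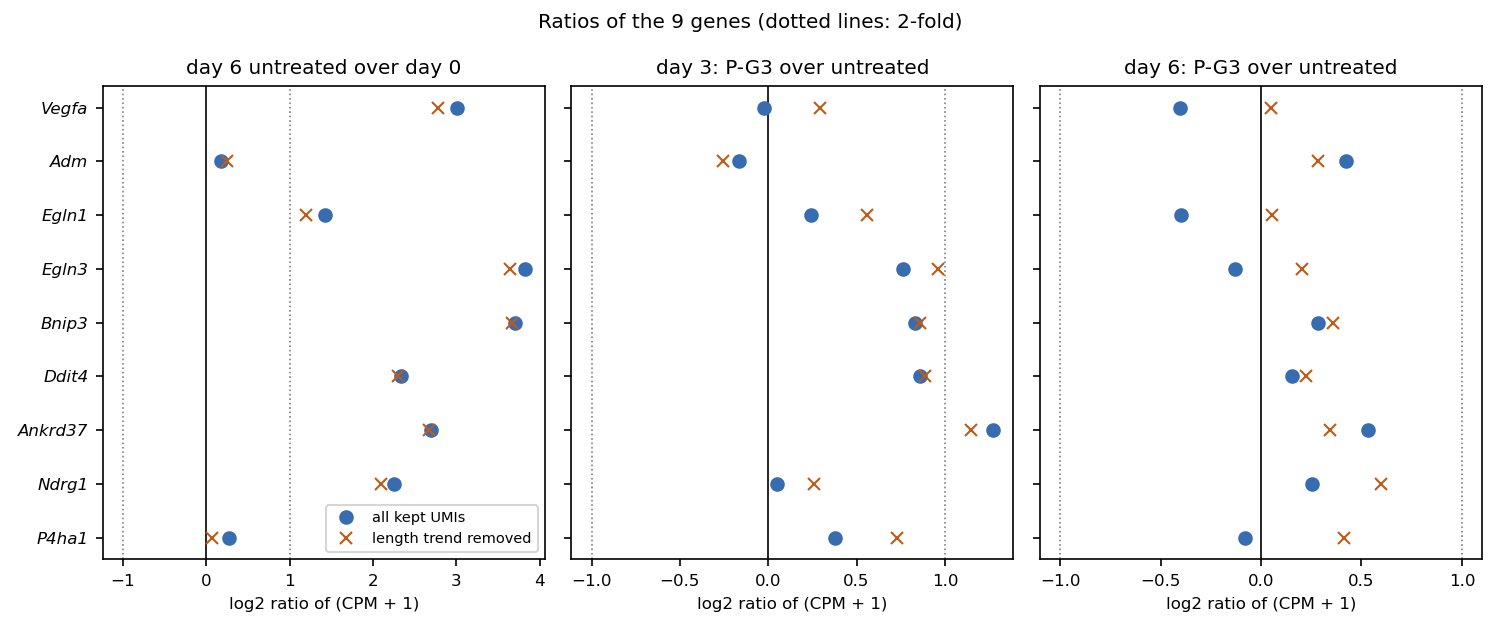
Log2 ratios of CPM + 1 for the 9 genes, day 6 untreated over day 0 (left), P-G3 over untreated on day 3 (middle) and P-G3 over untreated on day 6 (right); circles are the ratios of summed UMIs, crosses the ratios with the trend by transcript length removed, and dotted lines mark 2-fold. Ankrd37 lies past the line on day 3 at 1.27, and Vegfa lies at -0.40 on day 6 before and 0.05 after removal of the trend.

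On day 6 none of the 9 genes differed by 2-fold between P-G3 and untreated cells, while of 9137 genes 0.109% were past 2-fold on the higher side and 4.12% on the lower. Ankrd37 again had the highest ratio, with 74.5 CPM in P-G3 cells (72.9 to 76.2), against 51.1 CPM in untreated cells (49.6 to 52.6). Bnip3 had 454 CPM in P-G3 cells (450 to 458), against 372 CPM in untreated cells (368 to 376). Adm had 8.41 CPM in P-G3 cells (7.88 to 8.98), against 6.03 CPM in untreated cells (5.53 to 6.56). Ndrg1 had 6.98 CPM in P-G3 cells and 5.70 CPM in untreated cells, a direction that turned when each cell was weighted equally, and Ddit4 had 77.6 CPM in P-G3 cells and 69.8 CPM in untreated cells.

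Vegfa and Egln1 lay on the other side. Vegfa had 153 CPM in P-G3 cells (151 to 155), against 203 CPM in untreated cells (200 to 206), a ratio of 0.755 (0.739 to 0.771). Egln1 had 142 CPM in P-G3 cells (139 to 144), against 187 CPM in untreated cells (184 to 190), a ratio of 0.756 (0.740 to 0.773). The median log2 ratio of all genes was -0.34 on day 6, close to the -0.40 of both, and it followed transcript length as on day 3 (rho -0.62). With the trend by length removed both stood at 0.05, so that their direction depends on this correction. Egln3, at 102 CPM in P-G3 cells and 112 CPM in untreated cells, and P4ha1, at 85.4 CPM in P-G3 cells and 90.3 CPM in untreated cells, also changed sign with the correction, to 0.21 and 0.41, as they did under TMM and median-of-ratios scaling. The wider HIF target list, taken without the correction, had a median of -0.35 here, close to the -0.34 of all genes.

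The course within P-G3 cells can be read from the same levels, which share libraries with the comparisons above. Between day 3 and day 6 in P-G3 cells, 5 of 9 genes were at least 2-fold higher (Vegfa, Ndrg1, Bnip3, Egln3 and Adm), against 6.04% of 8987 genes higher and 7.08% lower. Ankrd37 fell just short on the scale of CPM + 1, at a log2 ratio of 0.99. With 0.1 CPM added in place of 1, 6 of the 9 were at least 2-fold higher, against 6.69% of all genes. Ddit4 was lower, with 77.6 CPM on day 6 against 110 CPM on day 3, a ratio of 0.703 (0.685 to 0.721). In untreated cells Ddit4 was instead 1.15-fold higher on day 6 than on day 3, and the difference between these courses was not tested.

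Cells were then grouped to ask where the genes were expressed. Clustering left out the 9 genes, the other HIF targets, glycolysis genes and markers of dividing cells, and it gave 15 clusters. On day 6 the 2 main clusters with usual UMI numbers were clusters 0 and 8. Cluster 0 carried all 10 adipocyte markers (1332 P-G3 cells and 920 untreated cells). Cluster 8 was preadipocyte-like on 3 markers (460 P-G3 cells and 503 untreated cells). Shallow cluster 1, with a median of 1659 UMIs per cell, held more day 6 cells than cluster 8 (1394 P-G3 cells and 658 untreated cells). It led on 6 adipocyte markers and was left unnamed. Clusters 2 and 6 held most day 0 cells. Cluster 2 was preadipocyte-like on 10 markers, while the leading genes of cluster 6 held 7 preadipocyte markers and 6 markers of dividing cells. Expression of the 9 genes was not confined to the adipocyte-like cells.

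In day 6 untreated cells, Bnip3 had 460 CPM in cluster 0 and 192 CPM in cluster 8, against 28.4 CPM in cluster 2 on day 0. Egln1 had 223 CPM in cluster 0 and 119 CPM in cluster 8, and Egln3 had 132 CPM in cluster 0 and 79.3 CPM in cluster 8. Vegfa was closer between them, with 229 CPM in cluster 0 and 181 CPM in cluster 8, against 25.3 CPM in cluster 2 on day 0. Ankrd37 had 53.9 CPM in cluster 0 and 54.2 CPM in cluster 8. P4ha1 and Adm ran the other way, with P4ha1 at 79.4 CPM in cluster 0 and 133 CPM in cluster 8, and Adm at 4.07 CPM in cluster 0 and 10.8 CPM in cluster 8. Thus the adipocyte-like cluster had more of the mitophagy receptor and both hydroxylases, and less of the collagen enzyme and adrenomedullin.

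The day 6 P-G3 library showed the same order between the 2 clusters for these genes, and the gap for Ankrd37 was wider. Bnip3 had 507 CPM in cluster 0 and 267 CPM in cluster 8, Egln1 had 158 and 70.0 CPM, and Egln3 had 112 and 68.0 CPM. P4ha1 had 77.5 CPM in cluster 0 and 137 CPM in cluster 8, and Adm had 6.89 and 16.1 CPM. Ankrd37 had 70.1 CPM in cluster 0 and 102 CPM in cluster 8. Set against untreated cells within a cluster, Ankrd37 was therefore 0.37 higher on the log2 scale in cluster 0 and 0.90 higher in cluster 8.

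**Figure D3:**
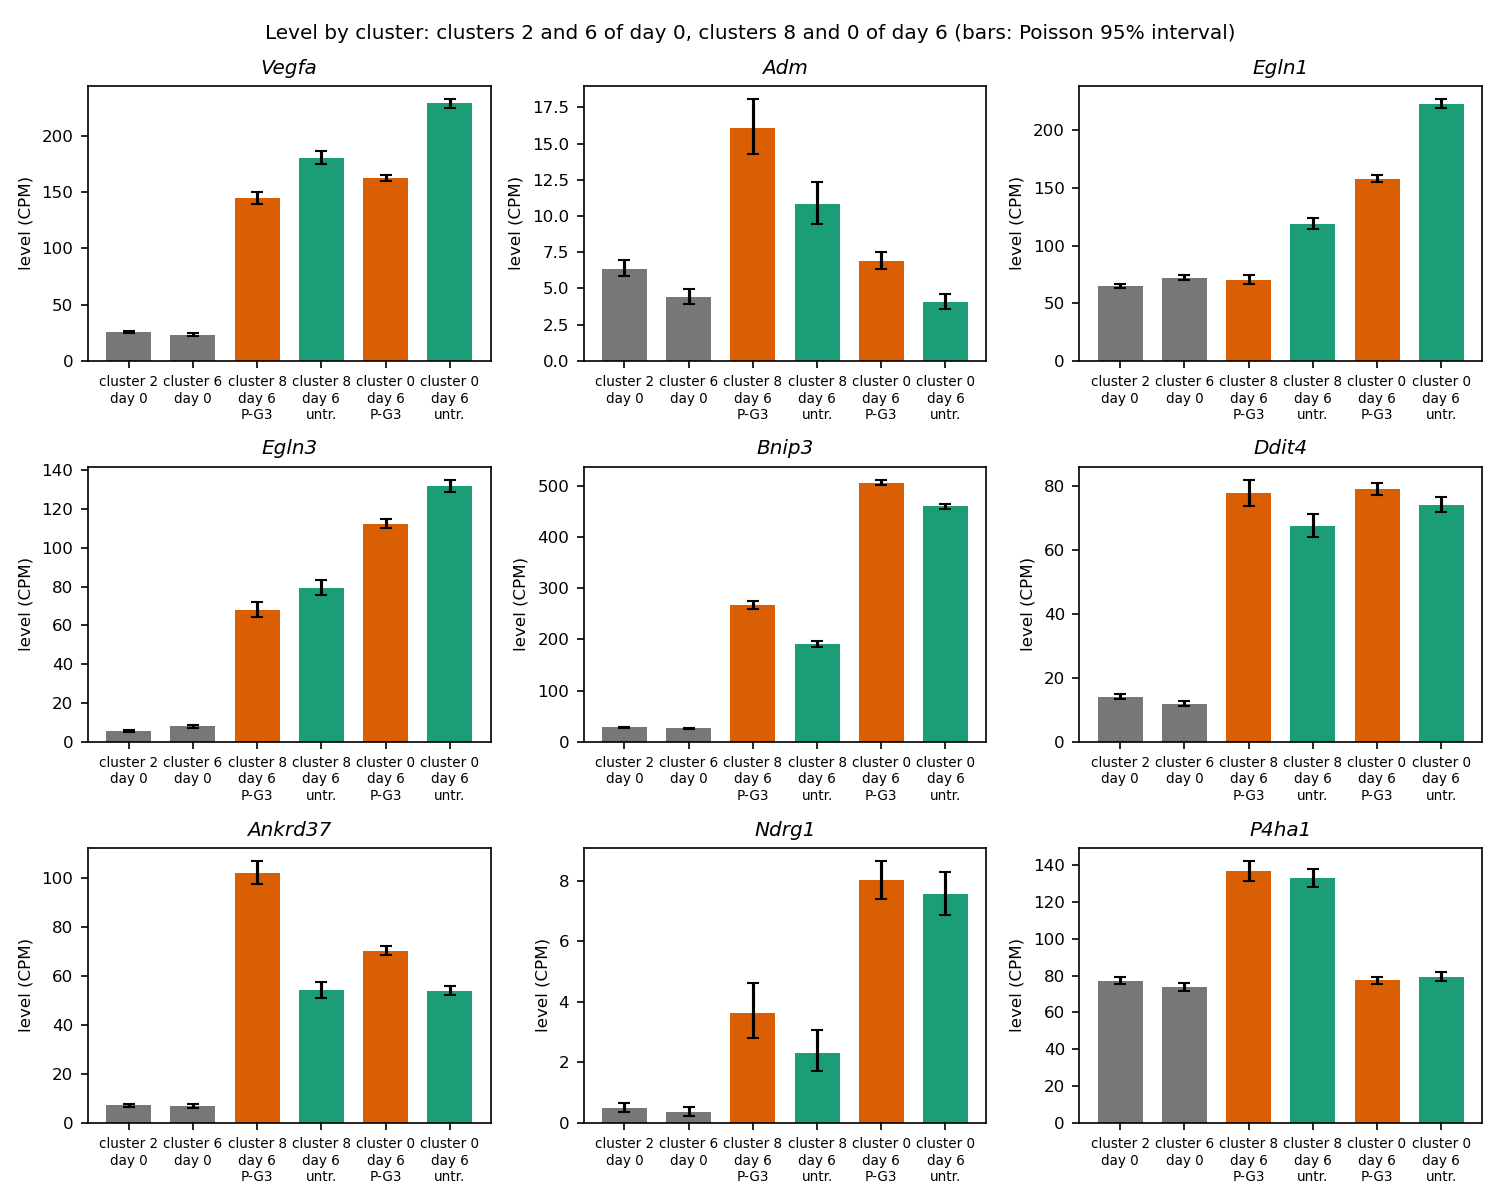
Levels in CPM by cluster, 1 panel per gene with its own axis from 0, for clusters 2 and 6 of day 0 (grey), and clusters 8 (preadipocyte-like) and 0 (adipocyte-like) of day 6 (orange P-G3, green untreated); error bars are Poisson 95% intervals. Bnip3 is highest in cluster 0, at 507 CPM in P-G3 cells and 460 CPM in untreated cells, whereas P4ha1 is highest in cluster 8, at 137 and 133 CPM.

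Along the adipocyte marker score of single day 6 untreated cells with at least 10000 UMIs, Pearson's r was 0.60 for Bnip3, 0.43 for Egln1, 0.39 for Egln3, 0.27 for Vegfa, -0.0028 for Ankrd37 and -0.36 for P4ha1 over 1541 cells. In day 6 P-G3 cells it was 0.50 for Bnip3, 0.45 for Egln1, 0.37 for Egln3, 0.21 for Vegfa, -0.17 for Ankrd37 and -0.33 for P4ha1 over 1881 cells. These cells share a library, and the correlations are descriptions.

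On day 3 the P-G3 difference was present within clusters. In the 6 clusters with at least 50 cells in both libraries and usual UMI numbers, Ankrd37 was higher in P-G3 cells in 6 of 6, by log2 ratios of 0.78 to 1.54, and at least 2-fold higher in 5. Bnip3 was higher in 6 of 6 clusters by 0.34 to 1.37, Ddit4 by 0.44 to 1.22, Egln3 by 0.49 to 0.84, P4ha1 by 0.42 to 0.71 and Egln1 by 0.07 to 0.43. Vegfa was higher in 4 of 6 and lower in 2, between -0.22 and 0.42. In preadipocyte-like cluster 5, for example, Ankrd37 had 30.4 CPM in 137 P-G3 cells, against 11.0 CPM in 1117 untreated cells. In dividing-like cluster 4, Bnip3 had 111 CPM in 739 P-G3 cells, against 42.4 CPM in 712 untreated cells. The cluster compositions themselves differed between the libraries, as the cell numbers of cluster 5 show. On day 6 only clusters 0 and 8 met both conditions. Egln1, Egln3 and Vegfa were lower in P-G3 cells in both, and Ankrd37, Bnip3, Ddit4, Ndrg1 and Adm were higher in both. The cluster ratios of both days carry no correction for transcript length. Over the whole day 6 libraries, Egln1, Egln3 and Vegfa changed sign with that correction, so their direction within clusters is not settled. Cluster 1 was shallow, with a median of 1659 UMIs per cell (1394 P-G3 cells and 658 untreated cells). Unlike in clusters 0 and 8, Bnip3, Ndrg1 and Adm were lower there, at log2 ratios of -0.12, -0.41 and -0.04. Egln3 was higher there, at 0.11. The Ndrg1 value rests on 30 P-G3 and 16 untreated UMIs, and the Adm value on 25 and 10.

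**Figure D4:**
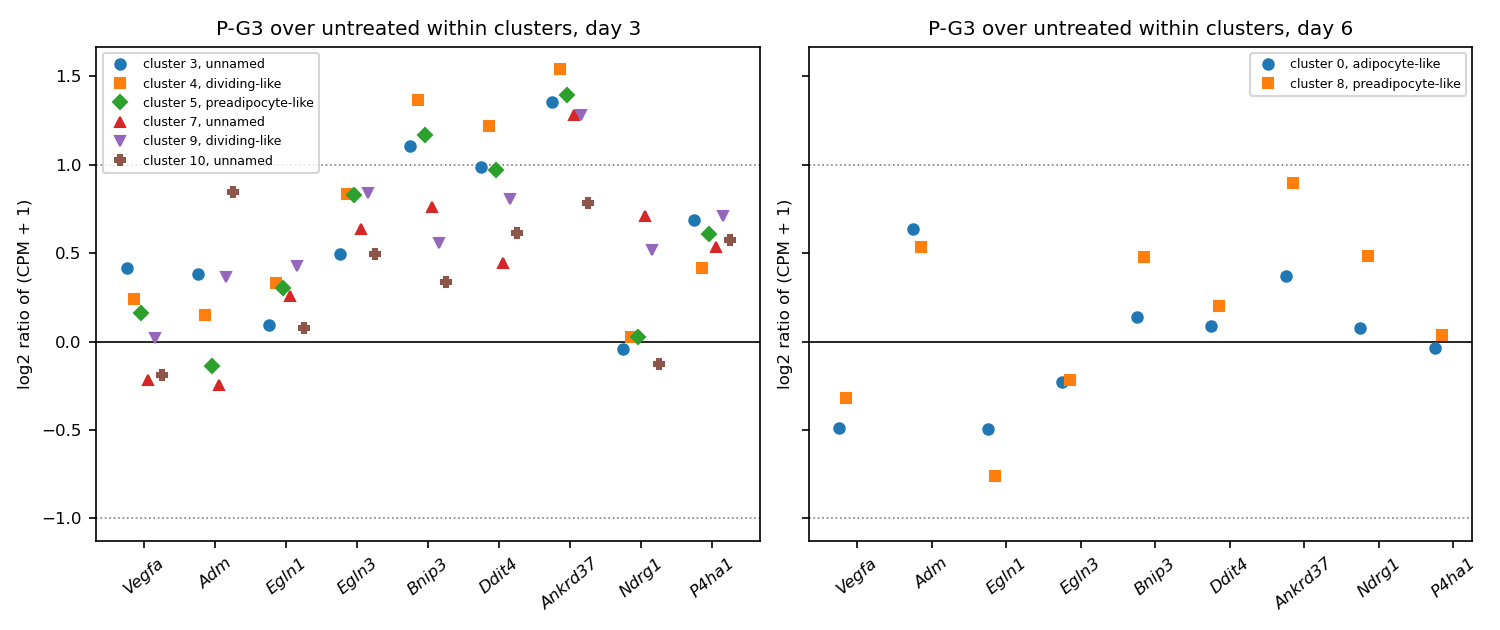
Log2 ratios of CPM + 1, P-G3 over untreated, for the 9 genes within each cluster that held at least 50 cells in both libraries and usual UMI numbers (shallow clusters are left out), day 3 on the left and day 6 on the right; each symbol is a cluster and dotted lines mark 2-fold. On day 3 the Ankrd37 ratios lie between 0.78 and 1.54 in the 6 clusters, and the Vegfa ratios lie on both sides of 0.

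The share of cells with a UMI was compared after every cell was thinned to 5000 UMIs. Thinning left out 1461 of 3546 day 6 P-G3 cells and 813 of 2468 day 6 untreated cells, and at most 96 cells of each other library. Bnip3 was detected in 11.3% of day 0 cells, 25.9% of day 3 untreated cells and 71.0% of day 6 untreated cells, against 62.9%, 72.2% and 80.8% before thinning. In P-G3 cells it was detected in 42.2% on day 3 and 80.0% on day 6, against 86.6% and 79.5% before thinning. Vegfa was detected in 11.2% of day 0 cells, 15.7% of day 3 untreated cells and 55.3% of day 6 untreated cells, and in 14.6% of day 3 and 47.1% of day 6 P-G3 cells. Ankrd37 was detected in 15.5% of day 3 P-G3 cells (14.3% to 16.7%) and 6.54% of day 3 untreated cells (5.75% to 7.41%). Ndrg1 remained rare, at 2.83% of day 6 P-G3 cells and 2.60% of day 6 untreated cells. No cell group in these cultures is known to lack these genes, so the share that free RNA gives could not be measured.

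Within each library some of the genes varied together from cell to cell. Across the 36 pairs of genes, the median Pearson's r was 0.05 on day 0, 0.24 in day 3 P-G3 cells, 0.19 in day 3 untreated cells, 0.17 in day 6 P-G3 cells and 0.18 in day 6 untreated cells. Egln1 and Bnip3 formed the pair with the highest r in the day 6 libraries and in day 3 P-G3 cells. Their r was 0.55 in day 3 P-G3 cells, 0.46 in day 3 untreated cells, 0.56 in day 6 P-G3 cells and 0.59 in day 6 untreated cells, and 0.17 on day 0. After thinning to 10000 UMIs the median over pairs was 0.018 on day 0, 0.129 in day 3 P-G3 cells, 0.098 in day 3 untreated cells, 0.098 in day 6 P-G3 cells and 0.089 in day 6 untreated cells. For Egln1 and Bnip3 after thinning, r was 0.32 in day 3 P-G3 cells, 0.24 in day 3 untreated cells, 0.34 in day 6 P-G3 cells, 0.36 in day 6 untreated cells and 0.08 on day 0. Bnip3 and P4ha1 were the pair with the lowest r in day 6 untreated cells, at -0.14.

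The genes most like the 9 were found by their correlation with the mean score of the 7 members that reached 20 CPM. Ero1l came first in both day 6 libraries, with r of 0.59 in each. In untreated cells it was followed by Hk2, Pdk1, Bhlhe40, Higd1a, Gys1, Nampt, Btg1, Bnip3l and Slc2a1, with r between 0.46 and 0.55. In P-G3 cells it was followed by Btg1, Bnip3l, Slc2a1, Nampt, Hk2, Ppp1r15a, Tigd2, Bhlhe40 and Gpi1, with r between 0.41 and 0.49. Of each list of 10 genes, 7 were on the other. Hk2 and Slc2a1 act in glucose uptake and its first step, Pdk1 limits the use of pyruvate within the mitochondria, and Gys1 makes glycogen.

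Summing the 9 genes in each cell showed a minority of cells on day 3 with values otherwise found on day 6. In cells thinned to 10000 UMIs the median sum was 2 UMIs on day 0, 4 in day 3 P-G3 cells, 2 in day 3 untreated cells, and 10 in both day 6 libraries. No day 0 cell of 3182 reached 15 UMIs, which by the limit of 3 counts allows a share of up to 0.0943%, and the highest day 0 cell had 12. The line at 15 was chosen after the values were seen. It was reached by 160 of 3675 day 3 P-G3 cells (4.35%, interval 3.72% to 5.06%), against 67 of 3393 day 3 untreated cells (1.97%, 1.53% to 2.50%). On day 6 it was reached by 439 of 1881 P-G3 cells (23.3%) and 351 of 1541 untreated cells (22.8%). The day 3 untreated library had the cell with the highest sum of all, 56 UMIs. Near the line, 77 P-G3 and 16 untreated day 3 cells had a sum of 13 or 14, and 53 P-G3 and 22 untreated day 3 cells had a sum of 15 or 16.

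**Figure D5:**
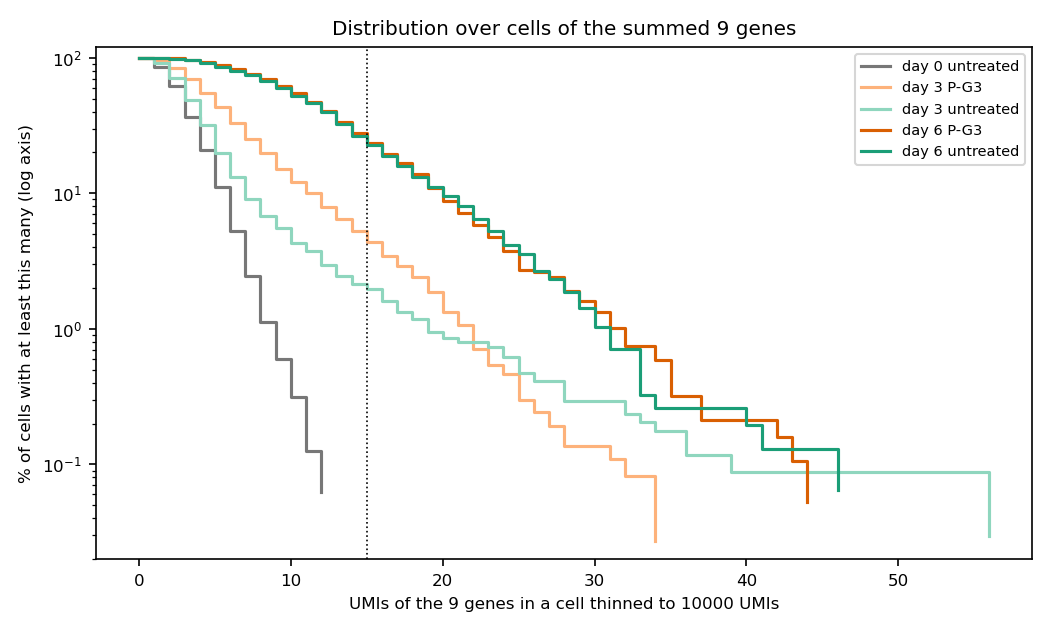
Share of cells, on a log axis, with at least a given number of UMIs of the 9 genes, after thinning each cell to 10000 UMIs; lines are libraries and the dotted line is at 15 UMIs. The day 0 line ends at 12 UMIs, while the day 3 lines cross 15 UMIs at 4.35% for P-G3 and 1.97% for untreated cells, below the day 6 lines at 23.3% and 22.8%.

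The HIF targets outside the 9, which did not enter this choice, were higher in the same cells. Their summed level in day 3 P-G3 cells was 8665 CPM at 15 or more UMIs and 3392 CPM below, and 29 of 29 measured targets were higher, 21 of them at least 2-fold. In day 3 untreated cells it was 8390 CPM at 15 or more and 2481 CPM below, with 30 of 31 higher and 27 at least 2-fold. Of all genes outside the 9, compared between the same cells, 45.0% were higher in P-G3 and 49.7% in untreated cells, and 1.60% and 4.73% at least 2-fold. On day 6 the gap was smaller, with 32 of 33 targets higher and 5 at least 2-fold in P-G3 cells (median log2 ratio 0.58), and 30 of 32 higher and 5 at least 2-fold in untreated cells (0.60). The shares of all genes higher were 63.7% in day 6 P-G3 and 52.7% in day 6 untreated cells, and 0.222% and 0.312% at least 2-fold. Ero1l, for example, had 361 and 44.0 CPM in day 3 P-G3 cells, and 660 and 32.8 CPM in day 3 untreated cells. The median depth of these cells was similar, at 37769 UMIs at 15 or more and 36075 UMIs below in day 3 untreated cells. Adipocyte markers were also higher in the same cells, at 2878 and 835 CPM in untreated cells and 2513 and 1581 CPM in P-G3 cells, and their part was not tested.

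The clusters, made without the 9 genes and the other HIF targets, did not gather these day 3 cells in a cluster of their own. Their share nevertheless differed between clusters. In untreated cells they lay in 8 clusters, with 24 of the 67 in cluster 10, where they made up 7.06% of 340 cells. In clusters 3, 4, 5, 7 and 9 they made up 0.576% to 1.74% of untreated cells. In day 3 P-G3 cells they made up 2.73% of cluster 3, 7.91% of cluster 10 and values between these in clusters 4, 5, 7 and 9. They made up 9.4% of 64 P-G3 cells in shallow cluster 12. A further 14 of the 67 untreated cells lay in clusters 0 and 8, which are otherwise made of day 6 cells. These 2 clusters held 29 day 3 untreated cells of this depth. Without the cells of these 2 clusters the shares were 4.26% of 3664 day 3 P-G3 cells and 1.58% of 3364 day 3 untreated cells. The other HIF targets then remained higher, 29 of 29 in P-G3 cells and 30 of 31 in untreated cells.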

How the data were processed

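Each of the 5 libraries (10x Genomics Chromium single cell 3' v2 chemistry, per the labels' protocols) came as a table of UMI counts per gene and barcode, deposited by the authors without normalization. The submitters' processing notes name Cell Ranger 3.1.0 and GRCm38, while the headers of the deposited count tables name 5.0.1. The gene annotation release and the use of strand in counting are not given in the sources used here. Barcodes with at least 500 genes and at most 20% mitochondrial UMIs were kept; no doublet caller was run, and dropping the deepest 5% of cells per library was an alternative. UMIs were summed over kept cells, and levels are CPM of that sum. A comparison is log2((CPM + 1)/(CPM + 1)), over genes that had 5 CPM or more in one of the 2 libraries, and its interval is the exact conditional binomial 95% interval of the ratio of counts. Levels have exact Poisson and shares exact Clopper-Pearson intervals; all cover counting error only. There is 1 library per group, so no test was made. A count of 0 was read as up to 3 counts.

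Clusters used 2000 variable genes, 30 components, 20 neighbours and Leiden resolution 1 (leidenalg 0.10.2, scikit-learn 1.9.0, Python 3.11.15), without batch correction. The TMM factors came from edgeR 4.0.16 and served only as an alternative scaling. Transcript lengths, for 32235 of 32285 genes, and gene positions came from a GRCm38 annotation, and promoter windows from RefSeq. The 9 genes, the gene lists and the line at 15 UMIs were chosen with earlier results of these data known. From each list, the genes named are among the 3 with the largest absolute log2 ratio at 20 CPM or more in the comparison described, with a few named for their role in oxygen sensing, in receptors or as relatives of the 9 genes. Ero1l was chosen as the example in the day 3 cells above the line after its values were seen. The genes most like the 9 were the 10 with the highest r at 50 CPM or more.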

Additional observations from a re-analysis of the deposited data

Results flagged for a closer look

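The P-G3 over untreated log2 ratios of 3 genes differed in direction between the days. Egln1 had 0.24 on day 3 and -0.40 on day 6, Egln3 had 0.76 on day 3 and -0.13 on day 6, and P4ha1 had 0.38 on day 3 and -0.08 on day 6. The Egln3 and P4ha1 values of day 6 change sign with TMM scaling and with the length trend removed, and the Egln1 value with the length trend removed alone. Ddit4 differed in direction between treatments in its day 6 over day 3 log2 ratio, at -0.50 in P-G3 cells and 0.20 in untreated cells. These differences were not tested, since each group is 1 library.

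The barcodes left out by the cell filter also held UMIs of the 9 genes. Their summed level was 110 CPM on day 0, 211 CPM in day 3 P-G3 and 276 CPM in day 3 untreated barcodes, and 656 CPM in day 6 P-G3 and 634 CPM in day 6 untreated barcodes. In the kept cells of the same libraries it was 228, 503, 327, 1104 and 1097 CPM.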

How the results depend on the processing

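The counts of genes at least 2-fold higher or lower were recomputed in 11 ways for each of the 6 comparisons, and the count lower was 0 each time. The count higher moved by over 1.5 times in 3 cases. For P-G3 over untreated on day 3 it was 3 with TMM and 4 with median-of-ratios scaling, beside 0.383% and 0.396% of all genes. For day 6 over day 3 in P-G3 cells it was 3 with a minimum of 20 CPM, beside 7.02% of all genes. No day comparison of a gene in untreated cells changed sign under any of these. For P-G3 over untreated, Vegfa and Adm on day 3 and Egln3 and P4ha1 on day 6 changed sign with TMM and median-of-ratios scaling, and Ndrg1 did so on both days when each cell was weighted equally. Vegfa on both days and Egln1 on day 6 changed sign with the length trend removed.

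Thinning to 1000 in place of 5000 UMIs lowered the shares of cells with a UMI, and thinning to 10000 lowered the median correlation of each library. With the line at 10 UMIs of the 9 genes, the share was 12.2% of day 3 P-G3 and 4.30% of day 3 untreated cells, and with the line at 20 it was 1.33% and 0.855%. Both lines were added after the data were seen. No paired analysis was possible because each group has 1 library. Depth limits Ndrg1 (64 UMIs on day 0) most. The spread between cultures is not known.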

Other observations

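Vegfa was higher in a small cluster of shallow cells than anywhere else. Cluster 14, with Lars2 and Malat1 among its top genes and a median of 1467 UMIs per cell, had 1070 CPM of Vegfa in 67 day 6 P-G3 cells and 850 CPM in 81 day 6 untreated cells. Adipocyte-like cluster 0 had 163 CPM in P-G3 cells and 229 CPM in untreated cells. In the same cells Ankrd37 had 21.3 CPM in P-G3 cells and 5.52 CPM in untreated cells, from 3 and 1 UMIs. This cluster was singled out after its values were seen.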
